A study of Rattus norvegicus with 12 samples.

Results

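Glucose uptake and glycolysis in cultured heart muscle cells were followed through 4 genes, *Slc2a1* (ENSRNOG00000007284), *Slc2a4* (ENSRNOG00000017226), *Hk2* (ENSRNOG00000006116) and *Ldha* (ENSRNOG00000013009). They were taken as a list of 4 identifiers, drawn up when earlier results of these data were known, and all 4 were found among the 15920 genes of the table. RNA-seq had been performed in neonatal rat ventricular myocytes (NRVM), primary cells from the heart ventricles of Sprague Dawley pups at postnatal day 2 to 3. The cells had been preplated and exposed to BrdU to deplete nonmyocytes and then kept in serum-free medium. By the paper's methods this medium was not free of insulin, as it held an insulin-transferrin-selenium supplement. The 12 libraries form 4 groups of 3. These are vehicle (Veh), 100 μM phenylephrine (PE), 10 nM THZ1, and PE with THZ1 at the same doses (PE+THZ1). PE is an α1-adrenergic agonist that drives cardiomyocyte hypertrophy, and THZ1 is a covalent inhibitor of the transcriptional kinases CDK7, CDK12 and CDK13. The labels give 48 h of treatment for every group, whereas 24 h stands in the column names of both groups that received PE, so that PE and a shorter treatment could not be told apart if those names were right. The paper's methods state that inhibitor or DMSO was given before PE, so a fall from PE to PE+THZ1 is a difference between groups and not the reversal of an earlier rise. The comparisons asked how each drug, and both together, moved these genes.

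Glucose enters the cardiomyocyte through facilitative transporters. *Slc2a1* encodes GLUT1, which carries basal uptake and prevails in the fetal and neonatal heart, and *Slc2a4* encodes GLUT4, which insulin and contraction move to the cell surface and which prevails in the adult heart. *Hk2* encodes hexokinase 2, which phosphorylates glucose and so traps it in the cell, and *Ldha* encodes the A subunit of lactate dehydrogenase, which interconverts pyruvate and lactate at the end of glycolysis.

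The sequence just upstream of the annotated start is shown for *Slc2a1*, *Ldha* and *Hk2*, the 3 of 4 members matched in the promoter table used here (*Slc2a4* was not), so that the start regions of the genes can be seen beside their values. Each line holds the 250 bases before the start that RefSeq annotates on the build GRCr8, read 5′ to 3′ on the gene's strand. Capitals mark ACGTG, a form of the core of the hypoxia response element, and GGGCGG, the GC box, on either strand. Other forms of that core were not searched and are not marked. The regions are chr5:138002272-138002521 (plus strand) for *Slc2a1*, chr1:106507842-106508091 (plus strand) for *Ldha* and chr4:116841276-116841525 (minus strand) for *Hk2*.
Slc2a1: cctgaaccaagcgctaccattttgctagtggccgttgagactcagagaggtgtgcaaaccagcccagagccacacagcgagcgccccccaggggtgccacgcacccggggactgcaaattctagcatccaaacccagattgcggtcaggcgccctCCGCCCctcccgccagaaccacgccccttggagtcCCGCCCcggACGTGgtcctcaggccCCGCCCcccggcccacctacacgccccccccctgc
Ldha: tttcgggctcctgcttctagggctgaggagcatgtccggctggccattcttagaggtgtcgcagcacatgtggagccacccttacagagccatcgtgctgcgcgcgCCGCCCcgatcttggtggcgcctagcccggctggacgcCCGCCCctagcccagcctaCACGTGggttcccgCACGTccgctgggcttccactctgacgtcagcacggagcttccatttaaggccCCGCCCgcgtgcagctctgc
Hk2: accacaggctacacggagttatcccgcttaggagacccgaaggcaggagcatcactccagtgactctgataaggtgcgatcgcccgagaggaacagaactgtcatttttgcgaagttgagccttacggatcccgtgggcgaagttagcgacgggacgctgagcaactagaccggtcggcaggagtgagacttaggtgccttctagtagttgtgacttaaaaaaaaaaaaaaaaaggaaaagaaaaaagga

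The *Ldha* window held 3 matches to ACGTG, 2 of which overlap on opposite strands, and 3 matches to GGGCGG. The *Slc2a1* window held 1 match to ACGTG and 3 to GGGCGG, and the *Hk2* window held 0 of either. Over the 33469 promoters of the table, 16.6% held ACGTG and 30.5% held GGGCGG in the same 250 bases. GC content was 68.4% for *Slc2a1*, 66.4% for *Ldha* and 49.6% for *Hk2*, against a median of 51.2% over all promoters. The matches are letters in these windows and say nothing of whether a factor was bound.

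Between 30458862 and 45885754 reads per library were recovered from the deposited values, in which the reads of a gene had been scaled by the size factor of their library (0.857 to 1.33). No gene of the table had under 1 read in any library, so shares of all genes refer to genes detected in every library. The scaled values still added up to unequal totals, at 37972984 ± 1917353 normalized counts (SD, n = 3) with Veh, 40369779 ± 130940 with PE, 34184256 ± 470200 with THZ1 and 33763048 ± 587361 with PE+THZ1. Veh replicate 2 stood clearly apart, with 32.5% of its reads in its 100 most abundant genes against 37.6% and 37.8% in the other Veh libraries. Chi-square per degree of freedom between its reads and those of Veh replicates 1 and 3 was 48.3 and 51.9. All remaining pairs within a group had 1.99 to 8.09. Without it, 8783 genes were called for PE against Veh instead of 7992, and 6107 for the interaction of PE and THZ1 instead of 4510. The identity of the cells was not checked against marker genes, because the identifiers of the table could not be paired with symbols here. No source says whether replicates came from separate cell preparations, so p-values measure the spread between these libraries, which may be technical.

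PE raised *Ldha* most among the 4 genes, raised *Slc2a4* and *Slc2a1* less, and the difference in *Hk2* did not pass the test. With PE+THZ1, *Slc2a4* and *Slc2a1* were below their Veh levels and *Ldha* was at a level between Veh and PE. These statements hold for the deposited size factors. With libraries set to equal totals, *Slc2a1* (-0.11, adjusted p = 0.083) and *Slc2a4* (-0.18, adjusted p = 0.17) were not called below Veh with PE+THZ1, and *Ldha* was level with PE (log2 difference 0.00, adjusted p = 0.97). In the fit across all genes (limma on log2(normalized count + 1), all 12 libraries, Benjamini-Hochberg adjusted p under 0.05), PE against Veh gave 3 of the 4 genes as higher and 0 as lower, where 50.2% of all genes were called, 27.2% higher and 23.0% lower. With PE+THZ1 against PE, 3 of 4 were lower and 0 higher, where 56.4% of all genes were called, 28.4% lower and 28.0% higher. With THZ1 against Veh, 1 of 4 was lower and 0 higher, where 47.1% were called, 23.7% lower and 23.4% higher. With PE+THZ1 against Veh, 2 of 4 were lower and 1 higher, where 49.1% were called, 24.9% lower and 24.2% higher. With PE+THZ1 against THZ1, 1 of 4 was higher and 0 lower, where 21.4% were called, 11.2% higher and 10.2% lower. The median log2 difference of the 4 genes was 0.24 with PE against Veh and -0.35 with PE+THZ1 against PE, beside 0.01 in each over all genes tested. With so many genes called in every comparison, these counts do not set the 4 genes apart. They also depend on the scaling. With equal totals, 1 of 4 was called for PE against Veh (*Ldha*, higher), where 2819 of all 15920 genes were higher and 4729 lower. For PE+THZ1 against PE, 2 were lower and 1 higher, where 2303 of all genes were lower and 7877 higher. For THZ1 against Veh, 1 was lower and 1 higher, where 2264 of all genes were lower and 5975 higher. For PE+THZ1 against Veh, 0 were lower and 2 higher, where 2211 of all genes were lower and 6389 higher. In bulk RNA, fewer cells of a type and less RNA per cell cannot be told apart.

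**Figure D1:**
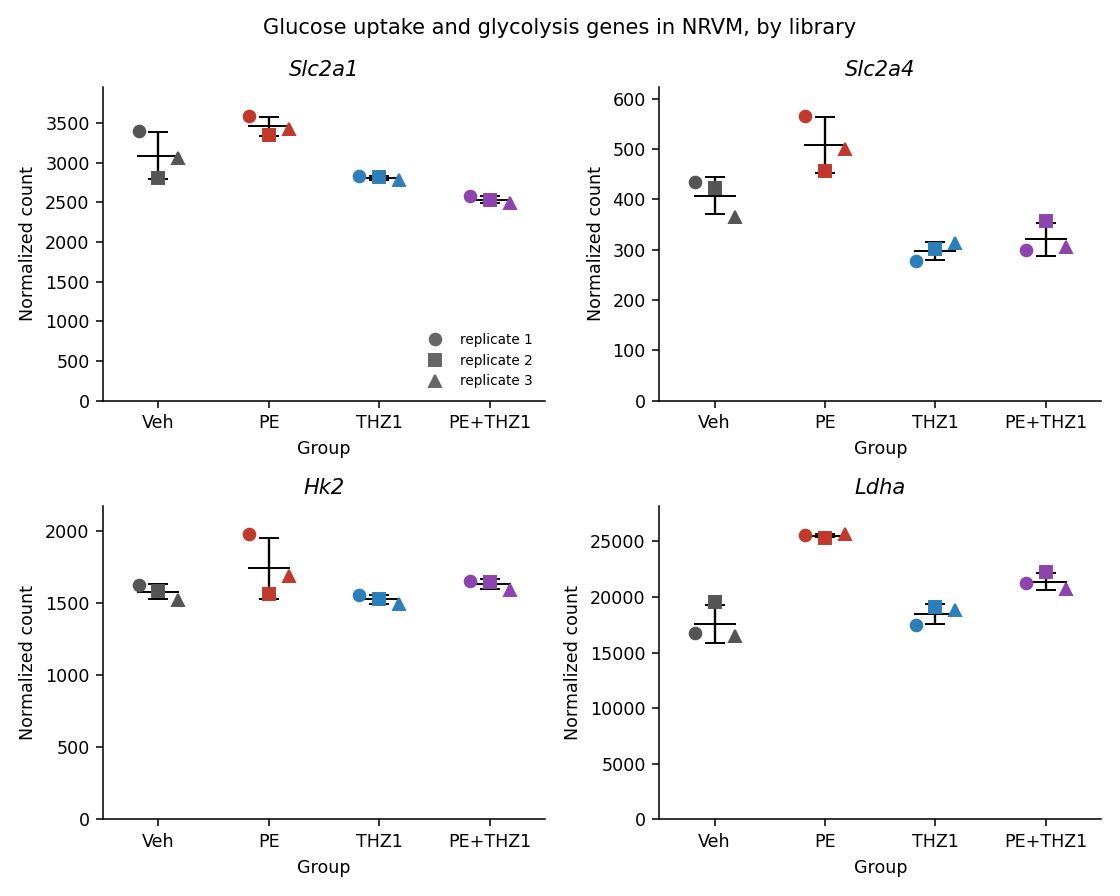
Normalized counts (vertical axes from 0) of *Slc2a1*, *Slc2a4*, *Hk2* and *Ldha* in the 3 libraries of each group, with the marker shape giving the replicate number, the horizontal line the group mean and the bars the SD. All 3 PE libraries of *Ldha* (from 25335) lie above every other library. The THZ1 and PE+THZ1 libraries of *Slc2a4* (up to 357) lie narrowly below all Veh and PE libraries (from 365). The *Hk2* groups overlap in all comparisons but PE+THZ1 against THZ1. Over all genes, groups did not overlap in 42% (PE+THZ1 against THZ1) to 64.5% (PE+THZ1 against PE).

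*Slc2a1* had 3400, 2802 and 3065 normalized counts in the Veh libraries, 3593, 3353 and 3430 with PE, 2829, 2826 and 2784 with THZ1, and 2583, 2536 and 2492 with PE+THZ1. The PE+THZ1 libraries were thus the lowest of all and did not overlap those of any other group, while Veh replicate 1 lay above PE replicate 2. Groups did not overlap in 64.5% of all genes for PE+THZ1 against PE, 53.1% against Veh and 42% against THZ1. The group means were 3089 ± 299.6 (SD, n = 3) with Veh, 3459 ± 122 with PE, 2813 ± 24.98 with THZ1 and 2537 ± 45.6 with PE+THZ1. The GLUT1 transcript was 12.3% higher with PE than with Veh (log2 difference 0.17, standard error 0.06, adjusted p = 0.018 from limma). It was lower with PE+THZ1 than with PE by 0.45 on the log2 scale (fold 0.734, standard error 0.06, adjusted p = 1.5e-06 from limma). Its level in PE+THZ1 was below Veh on this scale (log2 difference -0.28, adjusted p = 0.00039), a call not made with equal totals. The drop from PE to PE+THZ1 was 2.67 times the step from Veh to PE on the log2 scale, with 1.87 to 4.52 over the libraries left out in turn. In the order PE, Veh, THZ1, PE+THZ1, the middle step from Veh to THZ1 did not pass the test (log2 difference -0.13, 95% confidence interval -0.25 to -0.01, adjusted p = 0.061), nor did the last step from THZ1 to PE+THZ1 (-0.15, -0.27 to -0.03, adjusted p = 0.064).
The rise with PE is the least firm of these results. It was no longer called without Veh replicate 2 (log2 difference 0.10, adjusted p = 0.074) or without PE replicate 1 (0.14, adjusted p = 0.077), whereas THZ1 against Veh was called without Veh replicate 2 (-0.20, adjusted p = 0.00095).

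*Slc2a4* had 433, 423 and 365 normalized counts in the Veh libraries, 566, 456 and 500 with PE, 277, 301 and 314 with THZ1, and 298, 357 and 306 with PE+THZ1. Every library that received THZ1 was below every library that did not, and the PE libraries were the highest. The first split is narrow, at 357 in PE+THZ1 replicate 2 against 365 in Veh replicate 3. With equal totals neither statement held. PE+THZ1 replicate 2 (390.7) was then above Veh replicate 3 (338.7), and Veh replicate 2 (431.8) above PE replicate 2 (413.7). The share of all genes with such a joint split was not computed. Pair by pair, groups did not overlap in 51.5% of all genes for THZ1 against Veh and 64.5% for PE+THZ1 against PE. The share was 53.1% for PE+THZ1 against Veh and 53.3% for PE against Veh. The group means were 407 ± 36.9 (SD, n = 3) with Veh, 507 ± 55.4 with PE, 297 ± 18.8 with THZ1 and 320 ± 31.9 with PE+THZ1. These means rest on 243 to 510 reads per library, for which counting error alone is 4.64% to 5.58% of the value, against a spread between replicates of 6.32% to 10.9%. The GLUT4 transcript was 24.5% higher with PE than with Veh (log2 difference 0.32, standard error 0.10, adjusted p = 0.011 from limma). THZ1 lowered it without PE by 0.45 on the log2 scale (standard error 0.10, adjusted p = 0.00082) and in the presence of PE by 0.66 (standard error 0.10, adjusted p = 1.1e-05). On the log2 scale the latter fall was 2.09 times the step from Veh to PE (1.82 to 2.76 over the libraries left out in turn). Among the 4 genes it showed the largest fall in each of these THZ1 comparisons, and 20.8% of all genes had a larger absolute difference between PE+THZ1 and PE. In the order PE, Veh, PE+THZ1, THZ1, the last step did not pass the test (log2 difference 0.10 for PE+THZ1 against THZ1, 95% confidence interval -0.10 to 0.31, adjusted p = 0.50). The rise with PE was no longer called without Veh replicate 3 (0.24, adjusted p = 0.064) or without PE replicate 1 (0.23, adjusted p = 0.070).

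*Hk2* had 1628, 1583 and 1525 normalized counts in the Veh libraries, 1978, 1562 and 1687 with PE, 1556, 1529 and 1493 with THZ1, and 1654, 1649 and 1591 with PE+THZ1. The 9 libraries outside the PE group lay between 1493 and 1654, and the PE libraries spread the most, with a coefficient of variation of 12.3%. The group means were 1579 ± 51.8 (SD, n = 3) with Veh, 1742 ± 213.5 with PE, 1526 ± 31.6 with THZ1 and 1631 ± 35.3 with PE+THZ1. None of the comparisons of the hexokinase 2 transcript passed the test in the fit of all 12 libraries. The difference was 0.14 with PE against Veh (log2 scale, 95% confidence interval 0.00 to 0.27, adjusted p = 0.092 from limma), -0.09 with PE+THZ1 against PE (-0.22 to 0.05, adjusted p = 0.26) and -0.05 with THZ1 against Veh (-0.19 to 0.09, adjusted p = 0.57). Without PE replicate 2 it was called in the first of these (0.21, adjusted p = 0.012) and in the next (-0.16, adjusted p = 0.039), and without PE replicate 1 the log2 difference of PE+THZ1 against PE turned to 0.01 (adjusted p = 0.92).

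*Ldha* had 16748, 19536 and 16461 normalized counts in the Veh libraries, 25532, 25335 and 25625 with PE, 17474, 19136 and 18833 with THZ1, and 21219, 22200 and 20730 with PE+THZ1. The PE libraries were the most alike, with a coefficient of variation of 0.580% against 9.66% with Veh. Counting error alone is 0.653% of the value with PE, so the spread of this gene there is no larger than counting error. The PE libraries lay above all others, the PE+THZ1 libraries formed a level of their own beneath them, and those of THZ1 and Veh overlapped. Over all genes, 53.3% did not overlap between PE and Veh and 64.5% between PE+THZ1 and PE. For PE+THZ1 the share was 53.1% against Veh and 42% against THZ1. The group means were 17582 ± 1698 (SD, n = 3) with Veh, 25497 ± 148 with PE, 18481 ± 885 with THZ1 and 21383 ± 749 with PE+THZ1. The lactate dehydrogenase A transcript was 1.45-fold higher with PE than with Veh (log2 difference 0.54, standard error 0.06, adjusted p = 3.3e-07 from limma), and 21.4% of all genes had a larger absolute difference. With PE+THZ1 it was lower than with PE (log2 difference -0.25, standard error 0.06, adjusted p = 0.00088) and still higher than with Veh (0.29, adjusted p = 0.00042) and with THZ1 alone (0.21, adjusted p = 0.012). THZ1 alone gave a log2 difference of 0.08 from Veh (95% confidence interval -0.04 to 0.19, adjusted p = 0.30). On the log2 scale, PE+THZ1 lay below PE by 0.471 of the step from Veh to PE, with 0.411 to 0.521 over the libraries left out in turn. With equal totals this share was -0.00783.
The fall between PE and PE+THZ1 depends on how libraries are scaled, as described for the scalings further on. The higher level with PE+THZ1 than with THZ1 was no longer called without THZ1 replicate 1 (0.17, adjusted p = 0.076) or without PE+THZ1 replicate 2 (0.18, adjusted p = 0.069), and THZ1 against Veh was called without Veh replicate 2 (0.15, adjusted p = 0.0044), which had the highest *Ldha* of its group.

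**Figure D2:**
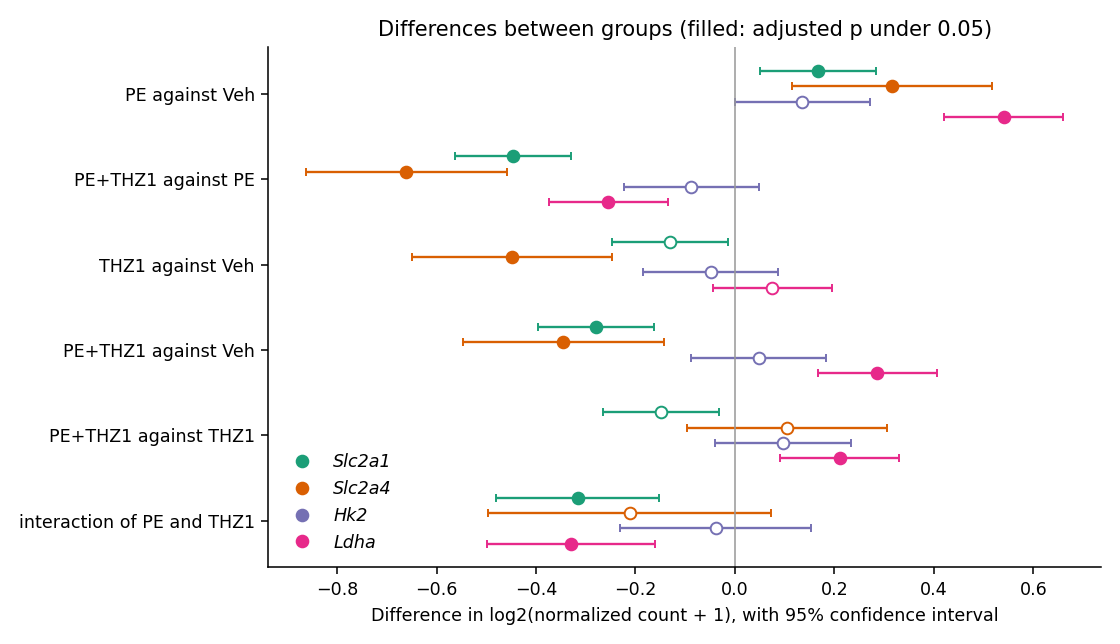
Difference in log2(normalized count + 1) between groups (horizontal axis) for the 5 comparisons and for the interaction of PE and THZ1 (vertical axis), with the 95% confidence interval of the limma fit as bars and filled points for an adjusted p under 0.05. *Slc2a1* and *Slc2a4* lie to the left of 0 with PE+THZ1 against Veh (-0.28 and -0.35), *Ldha* lies to the right (0.29) and *Hk2* has open points in all of them.

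Whether THZ1 acted differently in the presence of PE was tested by the interaction term. It passed for *Slc2a1* (log2 interaction -0.32, standard error 0.08, adjusted p = 0.0054 from limma) and *Ldha* (-0.33, standard error 0.08, adjusted p = 0.0050), where 28.3% of all genes were called, 16.0% with a negative and 12.3% with a positive value. For *Slc2a1* the THZ1 difference was -0.13 without PE and -0.45 with PE, and for *Ldha* it was 0.08 without PE and -0.25 with PE. The interaction of *Slc2a4* was -0.21 (95% confidence interval -0.50 to 0.07, adjusted p = 0.26) and that of *Hk2* was -0.04 (-0.23 to 0.15, adjusted p = 0.79), and neither passed. PE differed from Veh by 0.17 in *Slc2a1* without THZ1 and by -0.15 with THZ1, and the latter value did not pass the test. With libraries set to equal totals the interaction of *Slc2a1* was -0.21 (adjusted p = 0.048) and that of *Ldha* -0.22 (adjusted p = 0.15), and with quantile normalization they were -0.25 (adjusted p = 0.025) and -0.08 (adjusted p = 0.54).

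The balance of both transporters was followed as the ratio of *Slc2a1* to *Slc2a4* within each library. Scaling a library by a single factor does not change this ratio. It is a ratio of normalized counts, not corrected for transcript length, so that only its change between groups is informative. The ratio was 7.84, 6.63 and 8.40 with Veh, 6.35, 7.35 and 6.86 with PE, 10.2, 9.38 and 8.87 with THZ1, and 8.66, 7.11 and 8.16 with PE+THZ1. It was highest with THZ1 alone, where every library lay above those of all other groups, and lowest on average with PE. The group means were 7.63 ± 0.907 (SD, n = 3) with Veh, 6.86 ± 0.503 with PE, 9.49 ± 0.679 with THZ1 and 7.97 ± 0.792 with PE+THZ1. Tested pair by pair, THZ1 against Veh gave a 1.25-fold higher ratio and PE+THZ1 against THZ1 a 0.839-fold ratio, each without overlap (exact permutation test, two-sided, p = 0.1, adjusted p = 0.25 over 5 comparisons), and 0.1 is the smallest p that 3 libraries against 3 allow. The other 3 comparisons overlapped, with folds of 0.902 (PE against Veh, p = 0.3), 1.16 (PE+THZ1 against PE, p = 0.2) and 1.05 (PE+THZ1 against Veh, p = 0.6) in the same exact permutation test. How often the ratios of other gene pairs do not overlap was not computed.
Taken over both strata, with labels permuted within each stratum (exact permutation test, two-sided, 400 arrangements, smallest possible p = 0.005), THZ1 raised the ratio 1.2-fold (p = 0.01, higher than the stratum's mean without THZ1 in 6 of 6 libraries) and PE lowered it to 0.870 of its value (p = 0.035, 6 of 6 libraries). The GLUT4 transcript thus fell relative to the GLUT1 transcript with THZ1, and the ratio does not say whether the GLUT1 transcript itself fell. Adjusted over the 12 tests of all pairs described next, the exact permutation p was 0.024 for THZ1 and 0.060 for PE, and with single libraries left out the unadjusted p for PE reached 0.07 (without Veh replicate 3).

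**Figure D3:**
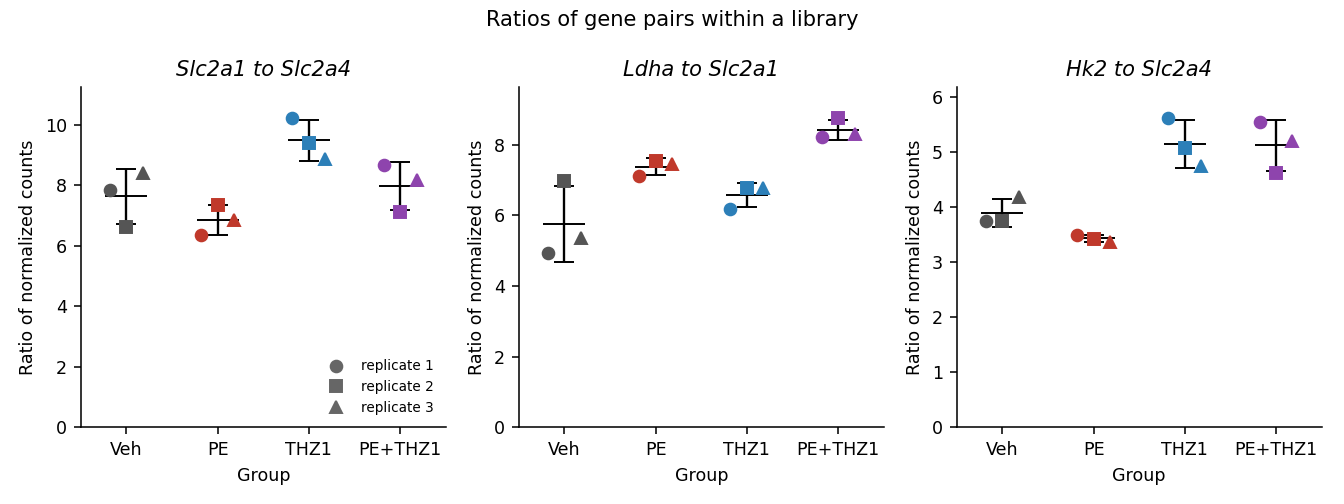
Ratio of normalized counts within a library (vertical axes from 0, no unit) for *Slc2a1* to *Slc2a4*, *Ldha* to *Slc2a1* and *Hk2* to *Slc2a4*, with 3 libraries per group, the mean as a line and the SD as bars. *Slc2a1* to *Slc2a4* is highest with THZ1 (8.87 to 10.2), *Ldha* to *Slc2a1* is highest with PE+THZ1 (8.21 to 8.76), and *Hk2* to *Slc2a4* is higher in all libraries with THZ1 (from 4.62) than in those without (up to 4.18).

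All 6 pairs of the 4 genes were then compared in the same way, with p-values adjusted over the 12 tests of both drugs. The 5 further pairs were added after the values had been seen, and the 12 tests share the same 4 genes. Pairs of other genes were not tested, so how often they reach such p-values is not known here. The results below therefore do not set these pairs apart. *Ldha* rose relative to *Slc2a1* with PE, from 5.76 ± 1.08 (SD, n = 3) with Veh to 7.38 ± 0.238 with PE and from 6.57 ± 0.341 with THZ1 to 8.43 ± 0.287 with PE+THZ1 (1.29-fold over both strata, 6 of 6 libraries, exact permutation p = 0.005, adjusted p = 0.015). *Ldha* also rose relative to *Hk2* with PE (1.2-fold over both strata, exact permutation p = 0.005, adjusted p = 0.015), by 1.32-fold without THZ1 and 1.08-fold with it. With THZ1, *Slc2a4* fell relative to each of the other 3 genes. The ratio of *Hk2* to *Slc2a4* was 3.89 ± 0.248 with Veh, 3.43 ± 0.0604 with PE, 5.15 ± 0.436 with THZ1 and 5.12 ± 0.468 with PE+THZ1, a 1.40-fold rise with THZ1 (exact permutation p = 0.005, adjusted p = 0.015). The ratio of *Ldha* to *Slc2a4* rose 1.38-fold with THZ1 by the same exact permutation test (p = 0.005, adjusted p = 0.015). In these tests 0.005 is the smallest p that can be reached. Over both strata, *Slc2a1* fell relative to *Hk2* with THZ1 (*Hk2* to *Slc2a1* 1.16-fold higher, exact permutation p = 0.02, adjusted p = 0.040). Most of this came from the stratum with PE, at 1.28-fold against 1.06-fold without PE. Without PE, the ratios with THZ1 (0.536 to 0.55) lay within the range of Veh (0.479 to 0.565). The ratio of *Ldha* to *Hk2* showed no common direction with THZ1, at 1.09-fold without PE and 0.891-fold with PE (exact permutation p = 0.825).

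The direction of the single genes was compared across scalings, because THZ1 lowered the summed normalized counts. With libraries set to equal totals, the median log2 difference of all genes moved from 0.01 to 0.27 with PE+THZ1 against PE, from 0.00 to 0.15 with THZ1 against Veh and from 0.01 to -0.07 with PE against Veh. Under this scaling 77.4% of the genes called between PE+THZ1 and PE were higher, against 49.6% with the size factors, 72.5% against 49.7% for THZ1 and Veh, and 37.3% against 54.3% for PE and Veh. On that scale *Ldha* had 23099 ± 146 normalized counts (SD, n = 3) with PE and 23174 ± 1146 with PE+THZ1, and its log2 difference was 0.00 (adjusted p = 0.97). Relative to the median of all genes the *Ldha* difference was -0.27 with the size factors and -0.26 with equal totals, whereas with quantile normalization *Ldha* lay 0.05 above that median (log2 difference 0.10, adjusted p = 0.17). For *Slc2a1* and *Slc2a4* the falls between PE and PE+THZ1 were smaller with equal totals, at -0.19 (adjusted p = 0.0043) and -0.40 (adjusted p = 0.0031), and were called in all 4 scalings. *Hk2* turned from -0.09 to 0.17 in this comparison (adjusted p = 0.047). *Slc2a1* and *Hk2* with THZ1 against Veh turned from -0.13 to 0.02 and from -0.05 to 0.10, and both stayed below the median of all genes. The rises with PE were smaller as well, and with equal totals those of *Slc2a1* (0.08, adjusted p = 0.24) and *Slc2a4* (0.23, adjusted p = 0.091) no longer passed, while that of *Ldha* did (0.45, adjusted p = 0.00012). With PE+THZ1 against Veh, *Hk2* was called higher on this scale (0.22, adjusted p = 0.017). The ratios within a library do not change when a library is scaled by a single factor, as with size factors, TMM and equal totals. Quantile normalization is not such a scaling, and the ratios were not computed after it.

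**Figure D4:**
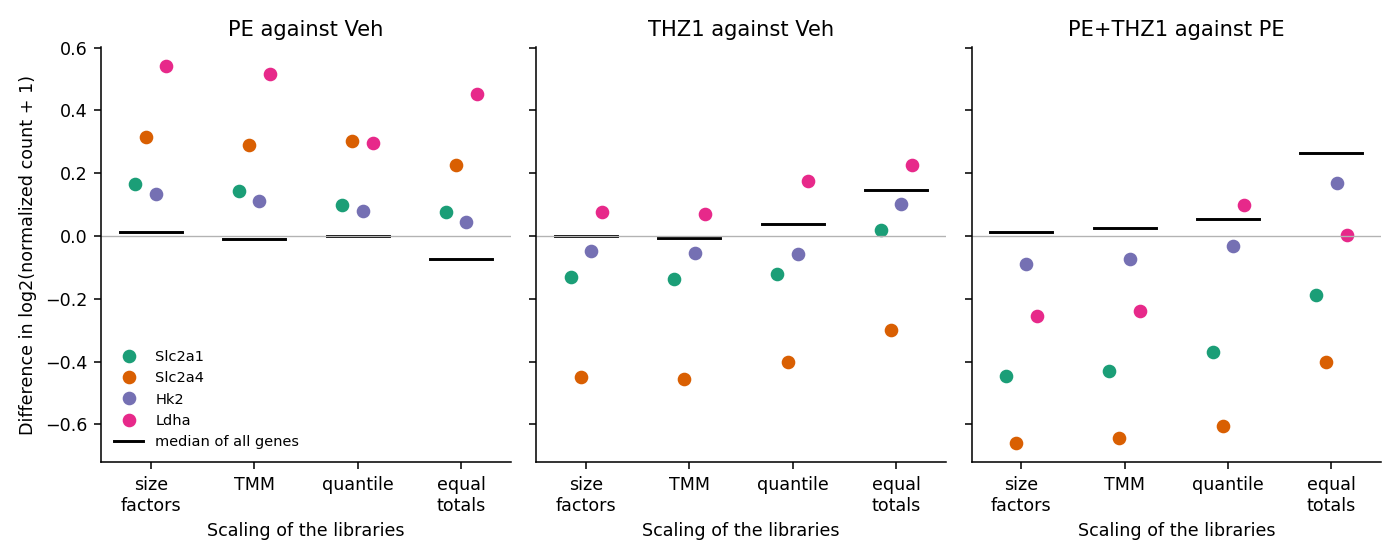
Difference in log2(normalized count + 1) of the 4 genes (vertical axis) under 4 ways to scale the libraries (horizontal axis) for 3 comparisons, with the median of all genes as a black line. With equal totals the median rises to 0.27 in PE+THZ1 against PE and *Ldha* sits at 0.00 and *Hk2* at 0.17, below that median, while *Slc2a4* is the lowest gene in both THZ1 panels under every scaling.

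The patterns of the 4 genes over the 12 libraries were set beside those of the 11163 genes with a mean of at least 100 normalized counts. Pearson's r of log2 values was highest between *Slc2a1* and *Slc2a4* (0.823) and lowest between *Slc2a1* and *Ldha* (0.294), with *Hk2* between them at 0.657 to *Slc2a4*, 0.602 to *Ldha* and 0.455 to *Slc2a1*. Ranked by likeness to *Slc2a1*, *Slc2a4* stood at place 953. The gene most like *Ldha* was ENSRNOG00000012329 (r = 0.993), that most like *Slc2a4* was ENSRNOG00000016989 (r = 0.984), that most like *Slc2a1* was ENSRNOG00000020460 (r = 0.970) and that most like *Hk2* was ENSRNOG00000020905 (r = 0.883), for none of which a symbol was available here. These values describe libraries that share 4 treatments and 1 normalization.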

How the data were processed

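RNA-seq of 12 NRVM libraries was analysed. The authors aligned reads to rn5 with TopHat2 2.1.1, counted them per gene with HTSeq (reverse strand) and normalized all rat samples in one DESeq2 run. What they deposited is therefore a signal, the reads of a gene scaled by the size factor of its library, and 100% of the values came out as whole reads within 0.01 of a read. A further column without a name holds a category per gene and was not used.

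Groups were compared over all 12 libraries and 15920 genes with limma 3.58.1 (R 4.3.3), fitted with a trend to log2(normalized count + 1), two-sided, with Benjamini-Hochberg adjustment. Such log2 differences slightly understate changes of low genes. Ratios were tested with exact permutation tests (Python 3.11.15). The fit was tested on simulated data with 200 changed genes and a single dispersion for all genes. That setting does not cover the many genes called here, the unequal totals or the outlying Veh library. As alternatives, the pseudocount (0.5 or 5), a minimum mean (10 or 50), equal totals, TMM, quantile normalization, no trend, edgeR 4.0.16 and DESeq2 1.42.0 on the recovered reads, a fit of the compared groups only, a replicate block and leaving out each library were tried. Within a group, no libraries were alike within sampling noise.

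The members and lists were chosen with earlier results of these data known. The genes named are the 4 members and, for each, the gene most like it by Pearson's r over the libraries. The symbols of the members were given with their identifiers. Further lists of pathway and cell marker genes were not used here, as 0 of the 15920 identifiers were paired with a symbol among 47357 RefSeq entries. Positions on rn5 are not given, and GRCr8 was used for promoters only.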

Additional observations from a re-analysis of the deposited data

Results flagged for a closer look

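The effect of THZ1 differed between cells with and without PE for *Slc2a1* (log2 interaction -0.316, adjusted p = 0.0054 from limma) and for *Ldha* (-0.33, adjusted p = 0.0050), by a test of the difference itself. Between PE+THZ1 and THZ1, the log2 difference was -0.15 for *Slc2a1* (adjusted p = 0.064, not passed) and 0.21 for *Ldha* (adjusted p = 0.012). The libraries of these groups did not overlap in either gene, as in 42% of all 15920 genes. With libraries left out in turn the interaction ran from -0.387 to -0.248 for *Slc2a1* and from -0.408 to -0.284 for *Ldha*. That of *Ldha* did not pass with equal library totals or quantile normalization.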

How the results depend on the processing

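Of 24 results of the 4 genes (log2 differences, limma), 13 passed the threshold. Over all genes, 21.4% (PE+THZ1 against THZ1) to 56.4% (PE+THZ1 against PE) passed in the same comparisons, so this count does not set the 4 genes apart. Both pseudocounts, both minimum means, TMM and DESeq2 called the same 13, edgeR called these and *Slc2a1* with THZ1 against Veh (-0.141, adjusted p = 0.044), and the numbers of genes called stayed within 1.5 times under all alternatives. Equal library totals called 10 results (7 shared) and quantile normalization 11 (10 shared). Of all 15920 genes, equal totals called 2824 to 10180 per comparison and quantile normalization 3382 to 9009. With equal totals, PE against Veh was 0.0775 for *Slc2a1* and 0.226 for *Slc2a4*, PE+THZ1 against PE was 0.170 for *Hk2* and 0.0035 for *Ldha*, THZ1 against Veh was 0.0199 for *Slc2a1*, 0.101 for *Hk2* and 0.226 for *Ldha* (adjusted p = 0.021), PE+THZ1 against Veh was -0.111 for *Slc2a1*, -0.177 for *Slc2a4* and 0.216 for *Hk2*, and the interaction was 0.0685 for *Hk2* and -0.222 for *Ldha*. With quantile normalization, *Slc2a1* with PE against Veh was 0.0980, *Ldha* was 0.0984 with PE+THZ1 against PE and 0.176 with THZ1 against Veh (adjusted p = 0.022), and the interaction was 0.0260 for *Hk2* and -0.0775 for *Ldha*. These scalings move the median of all genes or the upper end of the distribution by construction, and the cause beyond that was not tested. Without a trend, *Slc2a1* with PE against Veh (0.167, adjusted p = 0.055) and *Ldha* with PE+THZ1 against THZ1 (0.211, adjusted p = 0.058) did not pass. With the compared groups only, *Slc2a1* did not pass for PE against Veh (0.167, adjusted p = 0.065) and passed for PE+THZ1 against THZ1 (-0.149, adjusted p = 0.0030).

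Libraries with the same replicate number showed little common deviation (r from -0.043 to 0.0967 over 18 pairs, mean 0.0284, against a mean of -0.0143 over 36 other pairs). Of 12 libraries, 6 were closest to their own number. These values cannot tell whether libraries of the same number shared a cell preparation. The replicate block called 8162 genes between PE and Veh against 7992, and added *Slc2a1* with THZ1 against Veh (-0.131, adjusted p = 0.034) and with PE+THZ1 against THZ1 (-0.149, adjusted p = 0.035).

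With each library left out in turn, PE against Veh ran from 0.0989 to 0.238 for *Slc2a1*, 0.234 to 0.390 for *Slc2a4* and 0.0403 to 0.211 for *Hk2*. PE+THZ1 against PE ran from -0.163 to 0.0071 for *Hk2*. THZ1 against Veh ran from -0.199 to -0.0592 for *Slc2a1* and 0.0298 to 0.153 for *Ldha*. PE+THZ1 against THZ1 ran from -0.162 to -0.136 for *Slc2a1*, called without Veh replicate 1 (adjusted p = 0.019) or Veh replicate 2 (adjusted p = 0.0088), and from 0.171 to 0.237 for *Ldha*. The *Hk2* interaction ran from -0.114 to 0.0561. The log2 ratio of *Slc2a1* to *Slc2a4* ran from -0.0312 (without Veh replicate 2) to 0.147 for PE+THZ1 against Veh and from -0.250 to -0.161 for PE over both strata, an alternative added after seeing the data. The latter had an exact permutation p from 0.05 to 0.07 without Veh replicate 1 or 3, PE replicate 1 or 3, THZ1 replicate 1 or 2, or PE+THZ1 replicate 2. Depth limits *Slc2a4* most, at 243 to 510 reads per library.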
